A study of Homo sapiens with 9 samples.

Results

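The 10 genes *AFP*, *TTR*, *VTN*, *SERPINA1*, *TF*, *FGA*, *FGB*, *FGG*, *ALB* and *GJB1* were followed through human extra-embryoids (hEEs), which are aggregates of ESI017, a wild-type line of human embryonic stem cells given no treatment. Of these genes, 9 encode proteins that the liver and the yolk sac endoderm release, and *GJB1* encodes a gap junction protein. They were found by symbol among the 36601 genes of both tables of single-cell RNA sequencing, and each symbol had 1 row. ESI017 cells were kept on feeder cells in expanded potential medium (hEP media), aggregated in microwells and collected at D4 and at D6. Aggregates with an inner and an outer compartment in brightfield view were collected and pooled, so each day is 1 library of 1 line. No test between days was therefore possible, and the day and the library cannot be told apart.

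The D4 library held 10943 cells and the D6 library 11483 cells. Cells with 3430 to 27500 unique molecular identifiers (UMIs) and at most 10% mitochondrial UMIs were kept, which left 9151 cells at D4 and 10097 at D6. The 2 classes compared here were set by 3 genes that are not among the 10. The embryonic gate took cells with at least 5 UMIs of *POU5F1*, at least 1 of *SOX2* and at most 2 of *FN1*. The hypoblast gate took cells with at least 3 UMIs of *FN1*, none of *SOX2* and at most 5 of *POU5F1*. At D4 the embryonic gate held 3716 cells with a median of 15158 UMIs and the hypoblast gate 4061 cells with a median of 11012. At D6 these were 5054 cells with 14226 UMIs and 3567 cells with 10902 UMIs. No cell met both gates, and 40 cell barcodes occurred in both libraries.

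The gates carried the markers of their names. Of 13 hypoblast markers, 12 at D4 and 13 at D6 were at least 2-fold higher in the hypoblast gate, and 7 of 8 embryonic markers were at least 2-fold lower there on both days. *FN1*, *POU5F1* and *SOX2* are among these markers and set the gates. The exception among the embryonic markers was *TDGF1*, at 221 counts per 1000000 UMIs (CPM) in the D6 hypoblast gate and 164 in the embryonic gate. Of 24 hepatocyte enzymes in the tables, 4 (*G6PC*, *HAO1*, *CYP7A1* and *AKR1C4*) had no UMI in either library, and 6 reached 10 UMIs over both gates at D6. Of 10 trophoblast markers, *CGB5* and *VGLL1* had no UMI, and *GATA3* stood at 222 CPM in the D6 hypoblast gate. The hypoblast gate was also at least 2-fold higher in 9 of 10 definitive endoderm markers, *GATA3* among them, in 6 of 9 measured streak and mesoderm markers at D4 and 7 of 9 at D6, with 1 lower on each day, and in 3 of 5 measured amnion markers at D4 with 1 lower and 1 of 5 at D6 with 3 lower. *SOX17* and *FOXA2* stand in both the hypoblast and the definitive endoderm lists, so the count of 9 of 10 does not separate these classes. Whether some of these cells were definitive endoderm was not tested here. The authors reported that their SOX17-positive cells were enriched for extra-embryonic over definitive endoderm markers.

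The yolk sac forms plasma proteins before the fetal liver takes over this work. Its endoderm takes up nutrients, assembles lipoproteins and secretes carriers such as alpha-fetoprotein, transthyretin and transferrin, and alpha-fetoprotein is used as a mark of visceral endoderm. Fibrinogen is a clotting protein built from an alpha, a beta and a gamma chain, each with its own gene, and a complete molecule needs all of them.

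These genes form neighbourhoods in the genome. In RefSeq's GRCh38.p14, the build that matches the submitters' hg38, *ALB* (chr4:73404287-73421482) lies 14738 bases before *AFP* (chr4:73436221-73456174). Farther along chromosome 4 stand *FGB* (chr4:154562980-154572807), *FGA* (chr4:154583126-154590742) and *FGG* (chr4:154604136-154612656), with 10318 and 13393 bases between them. *TF* is on chromosome 3, *SERPINA1* on 14, *VTN* on 17, *TTR* on 18 and *GJB1* on X. RefSeq promoters were at hand for 9 of the 10 genes. Their 250 upstream bases were read on both strands for letters that liver factors are known to bind. GTTAAT, a core known from promoters of liver genes, was found for *AFP*, *ALB*, *FGA*, *FGB*, *GJB1* and 1 of the *SERPINA1* promoters, and in 6.23% of all 35116 promoters. The longer form GTTAATNAT, which contains that core, was found for *AFP*, *ALB* and *FGA*, and in 0.723% of all promoters. TTGCNNAA, a C/EBP sequence, was found for *AFP*, *ALB*, *FGA*, *FGB*, *TF* and *VTN* (9.05% of all promoters), and AGATAA, which factors of the GATA family bind, for *FGG* and *VTN* (9.17%). CAAAGTCCA for HNF4 (0.325%) and TGTTTAC for FOXA (2.98%) were in none of them. The 150 bases before the start of the 5 genes other than *SERPINA1* with the core are printed 5′ to 3′ on the strand of the gene, with the core in capitals (ATTAAC where it lies on the other strand), because they show how its place varies between genes whose levels are compared next.
AFP (chr4:73436071-73436220, plus strand): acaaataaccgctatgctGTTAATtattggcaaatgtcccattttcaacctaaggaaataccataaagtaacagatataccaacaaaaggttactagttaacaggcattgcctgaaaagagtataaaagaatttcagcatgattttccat
ALB (chr4:73404137-73404286, plus strand): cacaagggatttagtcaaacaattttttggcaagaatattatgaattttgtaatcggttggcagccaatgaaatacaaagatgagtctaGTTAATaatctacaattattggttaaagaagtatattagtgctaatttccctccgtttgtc
FGA (chr4:154590743-154590892, minus strand): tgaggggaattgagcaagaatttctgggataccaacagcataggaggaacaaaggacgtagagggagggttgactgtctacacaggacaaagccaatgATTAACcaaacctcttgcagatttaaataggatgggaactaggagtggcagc
FGB (chr4:154562830-154562979, plus strand): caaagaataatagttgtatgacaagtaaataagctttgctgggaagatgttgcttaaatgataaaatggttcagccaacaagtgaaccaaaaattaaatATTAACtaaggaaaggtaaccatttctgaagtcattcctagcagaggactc
GJB1 (chrX:71215089-71215238, plus strand): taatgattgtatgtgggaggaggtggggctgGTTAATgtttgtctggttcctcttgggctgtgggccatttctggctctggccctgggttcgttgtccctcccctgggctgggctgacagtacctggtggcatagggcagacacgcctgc
The core began 132 bases before the start of *AFP*, 119 before that of *GJB1*, 61 before that of *ALB*, 52 before that of *FGA* and 51 before that of *FGB*. A match is a description of letters and shows no binding. Among liver transcription regulators, *HNF4A* stood at 21.2 CPM at D4 and 45.9 at D6 in the hypoblast gate, *GATA6* at 121 and 297, and *FOXA2* at 129 and 145.

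Levels in CPM are the UMIs of a gene per 1000000 UMIs of all cells in a gate, with 95% exact Poisson intervals, shares of cells with exact binomial intervals and ratios of levels on the log2 scale with exact conditional binomial intervals. All of them cover counting error only. Because the libraries read the 3′ end, levels are set side by side for 1 gene at a time. To compare shares across depths, each cell was also thinned to 3430 UMIs. With a 2-fold difference as the criterion, and counting genes with at least 10 UMIs over both gates, 6 of 8 measured members were higher in the hypoblast gate at D4 (*TTR*, *VTN*, *FGA*, *FGB*, *FGG* and *GJB1*), where 15.2% of all 20214 genes were. *AFP* was lower by that criterion, as 16.5% of all genes were, and *TF* was between. At D6, 8 of 9 measured members were higher in the hypoblast gate, against 14.7% of all genes. From D4 to D6 within the hypoblast gate, 7 of 9 members were at least 2-fold higher, against 6.4% of 19306 genes, and *VTN* and *TF* were between. *ALB* passed the minimum through the D6 hypoblast gate alone, with 17 UMIs there. At D4, *TTR*, *FGA*, *FGB*, *FGG* and *GJB1* also passed it through the hypoblast gate alone, with 1 to 4 UMIs in the embryonic gate. So did *TTR* (4 embryonic UMIs) and *FGG* (2) at D6. The counts of members higher in the hypoblast gate therefore depend in part on that minimum. The 10 genes were chosen with earlier results of these data known. The authors had named *AFP*, *TTR*, *GJB1* and *VTN* as emerging by D6 in these cells. The counts of members are therefore descriptions and no independent support.

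The 10 genes together made up 36.4 CPM (34.7 to 38.1) of the D4 hypoblast gate and 140.2 (137 to 144) of the D6 hypoblast gate, a log2 ratio of 1.95 (1.87 to 2.02). The embryonic gate came to 5.87 (5.26 to 6.52) and 3.58 (3.17 to 4.04), and cells of neither gate to 18.5 and 52.8. The make-up of the sum changed between the days. *VTN* gave 61.7% of these UMIs in the D4 hypoblast gate and 23.6% at D6, *FGB* gave 4.37% and 34.8%, and *AFP* 1.09% and 11.5%. The median log2 ratio of D6 over D4 was 2.12 for the 9 measured members and -0.01 for all genes tested.

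**Figure D1:**
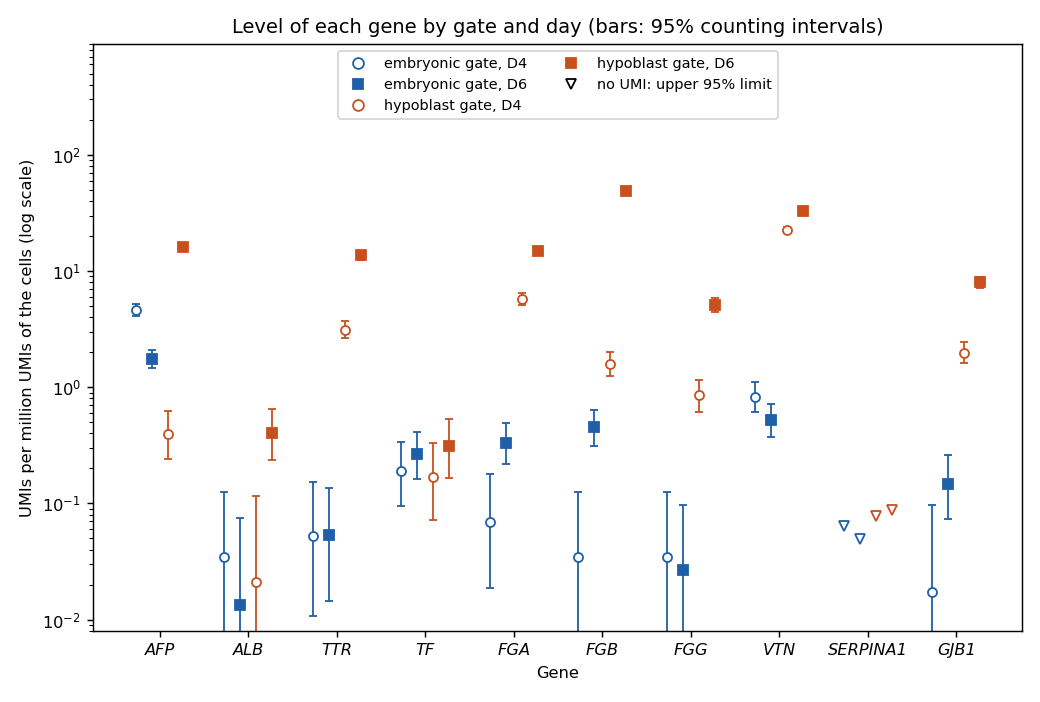
Level of each of the 10 genes in CPM (counts per 1000000 UMIs, log scale) in the embryonic gate (blue) and the hypoblast gate (orange) at D4 (open circles) and D6 (filled squares). Bars are 95% counting intervals and open triangles mark the upper limit for *SERPINA1*, which had no UMI; *AFP* stands at 4.60 in the embryonic gate and 0.397 in the hypoblast gate at D4, the reverse of its D6 order.

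*AFP*, which encodes the main carrier protein of fetal plasma, changed sides between the days. At D4 it had 266 UMIs in the embryonic gate, or 4.60 CPM (4.07 to 5.19), and 19 in the hypoblast gate, or 0.397 (0.239 to 0.620). The hypoblast level was lower by a log2 ratio of -3.53 (-4.29 to -2.86). At D6 the embryonic gate had 132 UMIs, or 1.76 CPM (1.48 to 2.09), and the hypoblast gate 672, or 16.1 (14.9 to 17.4), a log2 ratio of 3.19 (2.92 to 3.47). The order of the gates was thus reversed between the 2 libraries.

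At D4 an *AFP* UMI was found in 6.49% (5.71 to 7.33) of the embryonic gate and in 0.468% (0.282 to 0.730) of the hypoblast gate, and after thinning in 1.37% (1.02 to 1.80) and 0.222% (0.101 to 0.420). At D6 the shares were 2.55% (2.14 to 3.03) and 2.33% (1.86 to 2.88), and after thinning 0.653% (0.450 to 0.916) and 1.37% (1.02 to 1.81). The unthinned D6 shares lay within each other's intervals although the levels differed. Those unthinned shares stand beside median depths of 14226 UMIs in the embryonic gate and 10902 in the hypoblast gate, and after thinning the hypoblast share was the higher one. A positive cell held 1.02 *AFP* UMIs in the embryonic gate and 8.10 in the hypoblast gate.

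The hypoblast *AFP* UMIs of D6 sat in few cells. No embryonic cell of either day had more than 3 *AFP* UMIs, and no hypoblast-gate cell at D4 had more than 1. At D6, 42 of the 83 positive hypoblast-gate cells had 1 UMI, 3 had 2, 21 had 3 to 9 and 17 had 10 or more, up to 114 in 1 cell. The 36 cells richest in *AFP*, 1% of the gate, held 92.0% of its UMIs. Without the richest 1% of cells in each gate, the D6 levels were 1.31 CPM in the hypoblast gate and 1.05 in the embryonic gate, a log2 ratio of 0.31. The high D6 level therefore belongs to a small number of cells of 1 library, and the Poisson interval does not cover their number.

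In the embryonic gate at D4, *POU5F1* stood at 1206 CPM in the 241 *AFP*-positive cells and 1169 in the other 3475 cells, *SOX2* at 272 and 279, and *NANOG* at 60.7 and 53.3. *POU5F1* and *SOX2* set this gate, so cells with and without *AFP* carry both by the rule. *APOA1*, an apolipoprotein gene among the hypoblast markers, stood at 18.5 and 21.0 (log2 ratio -0.18, -0.53 to 0.15), an interval that spans 0. *TFAP2A*, a gene of amnion, was lower in the positive cells, at 4.51 and 7.99 (-0.83, -1.57 to -0.17). At D6, in 129 positive and 4925 other cells, *APOA1* was lower in the positive ones, at 53.7 and 90.7 (-0.76, -1.04 to -0.49), and so was *APOA2* (-1.42, -2.64 to -0.44). At D4 the positive cells were somewhat deeper, with medians of 17213 and 15021 UMIs. For most members the embryonic level was a small share of the hypoblast level at D6. It was 0.392% for *TTR*, 0.932% for *FGB* and 1.57% for *VTN*, but 85.9% for *TF*. Among hypoblast markers this share was 0.752% for *APOA1*, 0.868% for *APOA2* and 12.7% for *APOE*. For *AFP* it lay between 9.03% and 13.2% at D6, by its counting interval, and was 1159% at D4.

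*ALB*, the gene next to *AFP* and the main plasma carrier after birth, was barely detected. It had 2 UMIs in the embryonic gate and 1 in the hypoblast gate at D4, and 1 and 17 at D6. The D6 hypoblast level was 0.407 CPM (0.237 to 0.652), in 15 of 3567 cells. The log2 ratio of D6 over D4 in that gate was 4.28, with an interval from 1.61 to 9.67 that reflects a single D4 UMI. No cell of that gate had more than 2.

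*TTR*, the carrier of thyroid hormone and of retinol-binding protein, was a hypoblast-gate gene on both days. It had 3 UMIs in the embryonic gate and 150 in the hypoblast gate at D4, and 4 and 570 at D6. In the hypoblast gate it stood at 3.14 CPM (2.65 to 3.68) at D4 and 13.6 (12.5 to 14.8) at D6, a log2 ratio of 2.12 (1.86 to 2.39). The share of cells with a UMI went from 3.10% (2.59 to 3.68) to 6.36% (5.58 to 7.22), against 0.0807% and 0.0791% in the embryonic gate. Thinned, the hypoblast shares were 0.862% and 3.25%. Part of the D6 level again lay in few cells, since 1% of the gate held 56.0% of its UMIs and 1 cell had 58. Leaving these richest cells out of each day gave 1.80 and 6.06 CPM.

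*TF* encodes transferrin, the iron carrier, and showed no difference that these depths could resolve. It had 11 and 8 UMIs in the embryonic and hypoblast gates at D4 and 20 and 13 at D6. All 4 levels lay between 0.167 and 0.311 CPM with overlapping intervals. The log2 ratio of the hypoblast over the embryonic gate was -0.19 (-1.70 to 1.26) at D4 and 0.22 (-0.91 to 1.30) at D6. A 2-fold difference either way lies within the D4 interval. Its receptor gene *TFRC* stood at 55.6 CPM at D4 and 65.4 at D6 in the hypoblast gate, below the 98.0 and 113 of the embryonic gate.

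The fibrinogen genes were all higher at D6, and by unequal amounts. *FGB*, the beta chain, had 76 UMIs in the hypoblast gate at D4, or 1.59 CPM (1.25 to 1.99), and 2037 at D6, or 48.8 (46.7 to 50.9). Its log2 ratio was 4.94 (4.61 to 5.29), next to the 5.34 (4.69 to 6.08) of *AFP*. It was 6.40 with the richest 1% of cells of each day left out. Those cells held 75% of the *FGB* UMIs at D4, where 19 were left, and 31.4% at D6, so the larger ratio rests on few D4 UMIs. *FGA*, the alpha chain, stood at 5.79 (5.13 to 6.51) and 14.7 (13.6 to 15.96), with a log2 ratio of 1.35 (1.14 to 1.56). *FGG*, the gamma chain, stood at 0.857 (0.615 to 1.16) and 5.08 (4.41 to 5.81), with a log2 ratio of 2.57 (2.08 to 3.09). The counting intervals of the 3 ratios did not overlap. They treat UMIs as independent and do not cover the number of cells that held them, so they cannot rank the 3 ratios beyond these 2 libraries.

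At D6 *FGB* was seen in 13.3% (12.2 to 14.5) of the hypoblast gate and *FGA* in 428 of 3567 cells (10.9% to 13.1%), or in 8.61% and 4.32% of thinned cells. A positive cell held 4.28 UMIs of *FGB* and 1.44 of *FGA*, and 59 cells had 10 or more UMIs of *FGB*. At D4 the shares were 1.48% for *FGB*, 6.01% for *FGA* and 0.936% for *FGG*. In thinned cells *FGB* went from 0.542% to 8.61% and *FGA* from 2.02% to 4.32%. *FGG* was seen in 4.21% of the D6 gate, with at most 8 UMIs in a cell.

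In the embryonic gate *FGB* had 2 UMIs at D4 and 34 at D6, and *FGA* had 4 and 25. A single D6 cell held 17 of the 25 *FGA* UMIs, and the other 8 positive cells had 1 each. *FGB* was in 0.594% of D6 embryonic cells, with 1.13 UMIs in a positive cell. With *GJB1* (1 and 11 UMIs), these were the 3 of 6 measured members at least 2-fold higher at D6 in the embryonic gate, as 5.43% of all genes were. All 3 passed the minimum of UMIs through D6 alone. *TTR* (3 UMIs at D4 and 4 at D6), *FGG* (2 and 2) and *ALB* (2 and 1) stayed under it and are not among the 6. The count of 3 of 6 therefore depends in part on that minimum. The *FGA* call rests on the D6 cell with 17 *FGA* UMIs, which was among the cells that Scrublet called doublets. Without it, an alternative chosen after seeing the data, *FGA* stood at 0.107 CPM at D6 and 0.0692 at D4, a log2 ratio of 0.63 (-1.27 to 2.81), and 2 of 6 members remained at least 2-fold higher. *AFP* was the 1 that was 2-fold lower, as 2.02% of all genes were. Over the same days *APOA1* went from 20.8 to 89.6 CPM in the embryonic gate and from 1621 to 11926 in the hypoblast gate. The part that RNA free in the suspension had in these low embryonic levels was not tested.

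*VTN* encodes vitronectin, an adhesive glycoprotein of plasma and matrix that integrins bind. It was the member seen in most hypoblast-gate cells on both days, with 1074 UMIs in 21.0% (19.7 to 22.2) of cells at D4 and 1385 in 25.2% (23.8 to 26.6) at D6. Thinned shares were 7.68% (6.88 to 8.55) and 10.1% (9.15 to 11.2). The levels were 22.5 CPM (21.1 to 23.8) and 33.2 (31.4 to 34.9), a log2 ratio of 0.56 (0.45 to 0.68) that stayed under 2-fold. In the embryonic gate it stood at 0.831 (0.612 to 1.10) and 0.521 (0.371 to 0.712). *VTN* UMIs were spread over cells, with 14.5% of them in the richest 1% of the D6 gate. Its integrin receptor subunits *ITGAV* and *ITGB5* stood at 44.4 and 50.1 CPM in the D6 hypoblast gate, and *ITGB1* at 255.

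*SERPINA1*, which encodes alpha-1 antitrypsin, an inhibitor of neutrophil elastase, was listed with no UMI in any cell of either library. It was 1 of 6826 genes with no UMI in the tables. A count of 0 in 3567 D6 hypoblast-gate cells allows a share of cells with a UMI of up to 0.0841% by a floor of 3 counts, and the upper limit of the level was 0.0883 CPM. These limits hold for detected UMIs and not for expression. A row that is empty for another reason and a gene without RNA cannot be told apart from the tables. Among other plasma protein genes without any UMI were *ITIH1*, *ORM1*, *F9*, *C4A*, *C4B*, *FGL1*, *CRP* and *SAA4*.

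*GJB1* encodes connexin 32, the gap junction protein of hepatocytes, and is not secreted. It had 1 UMI in the embryonic gate and 95 in the hypoblast gate at D4, and 11 and 336 at D6. The hypoblast level went from 1.99 CPM (1.61 to 2.43) to 8.04 (7.21 to 8.95), a log2 ratio of 2.02 (1.69 to 2.36). It was 2.63 without the richest 1% of cells, which held 46.3% of the UMIs at D4 and 18.2% at D6. The share of cells went from 2.27% (1.83 to 2.77) to 8.72% (7.81 to 9.69), and in thinned cells from 0.689% to 2.97%. Unlike the high-count *AFP* and *FGB* cells, no cell had more than 3 UMIs of *GJB1*. Among the connexins, 5 of 14 measured genes were at least 2-fold higher at D6 in the hypoblast gate, against 6.4% of all genes. *GJA4*, *GJA5*, *GJB1* and *GJB5* were among them, and none was lower. *GJA1* was at 389 and 448 CPM, and *GJA4* at 26.0 and 70.8.

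**Figure D2:**
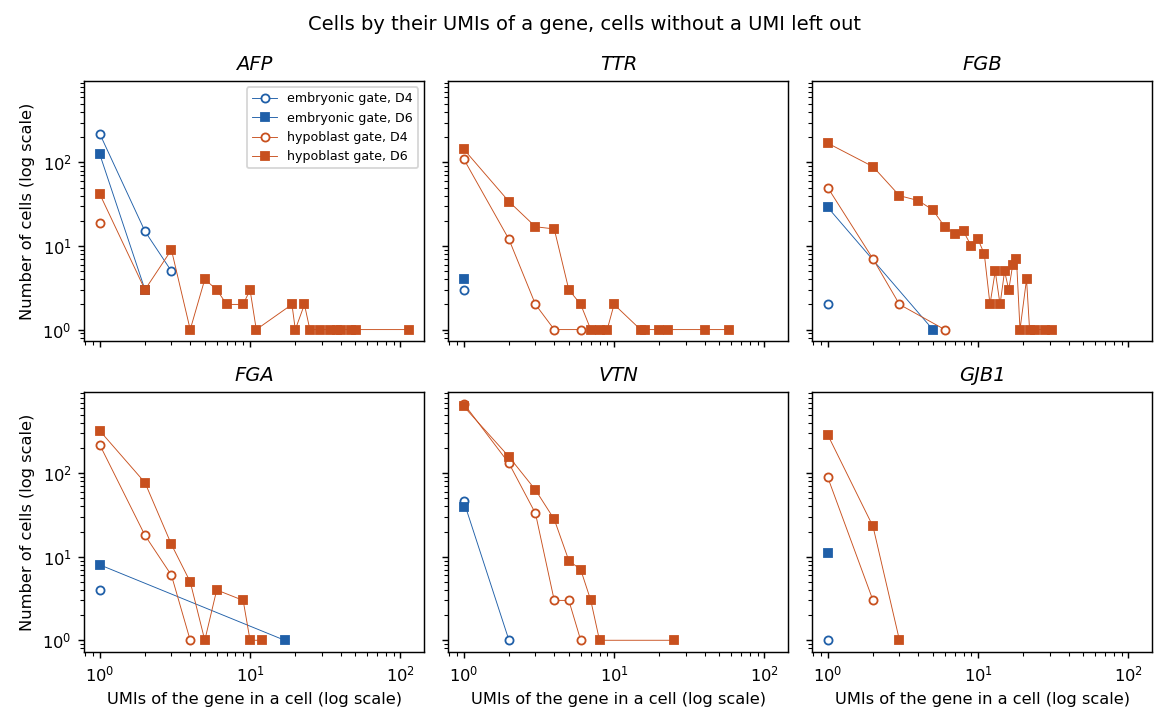
Number of cells (log scale) with each number of UMIs (log scale) of *AFP*, *TTR*, *FGB*, *FGA*, *VTN* and *GJB1*, by gate (colour) and day (open circles D4, filled squares D6). *AFP* reaches 114 UMIs and *TTR* 58 in single D6 hypoblast-gate cells, while *GJB1* stops at 3.

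Members were detected together more often than their separate shares would give. In the D6 hypoblast gate, 44.4% of cells had a UMI of at least 1 member, 17.3% of at least 2 and 7.12% of at least 3, and 1 cell had 8. At D4 these were 30.4%, 4.43% and 0.492%. In thinned cells, at least 2 members were found in 6.25% of cells at D6 and in 0.492% at D4. Since deeper cells show more genes at once, pairs were counted in thinned cells.

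Of the 21 pairs among the 7 members with at least 10 positive thinned cells at D6, 20 were found together in more cells than the product of their shares. For 16 pairs the count was at least 2-fold the product, and the median was 3.59-fold. Pairs of other genes in the gate were not counted, so whether this is particular to the members was not tested. *AFP* and *TTR* were together in 20 cells against 1.59 from the product. *AFP* and *FGB* were together in 32 of the 49 *AFP*-positive cells, or 65.3% (50.4 to 78.3), while *FGB* was in 7.82% of the others. *FGA* and *FGB* shared 56 cells against 13.3, *FGA* and *FGG* 13 against 2.72, and *FGB* and *FGG* 23 against 5.42. The fibrinogen chains were thus seen in overlapping cells, and still *FGB* was in 36.4% (28.8 to 44.5) of *FGA*-positive cells at this depth.

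*GJB1* was the member least tied to the rest. Its pairs had Pearson's r between -0.01 and 0.06 on log2(1 + thinned UMIs) over the 3567 cells, and with *FGG* it shared 1 cell against 1.87. The highest coefficient among the 21 pairs was 0.28, for *FGA* and *FGB*. At D4 no pair exceeded 0.09 over 4061 cells, where most members had few positive cells. Cells of 1 library are no replicates, and these coefficients are descriptions in sparse counts.

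**Figure D3:**
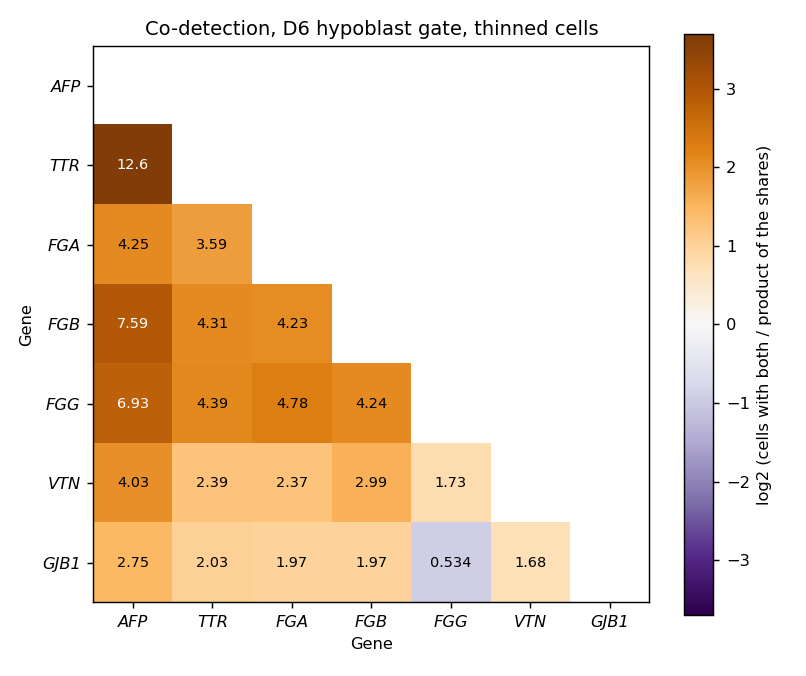
Cells of the D6 hypoblast gate with both genes of a pair, divided by the count that the product of the 2 shares gives, in cells thinned to 3430 UMIs; the number is printed in each square and the colour is its log2. *AFP* with *TTR* has the highest value at 12.6, and *GJB1* with *FGG* is the pair under 1.

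The genes most like each member over the D6 hypoblast-gate cells, among 10970 genes seen in at least 50 thinned cells, were often other members. For *AFP* they were *FGB* (r = 0.28), *TTR* (0.23) and *VTN* (0.18). *FGB* was first for *VTN* (0.24), *FGA* (0.28) and *FGG* (0.16). For *FGB* itself they were *CDKN1C* (0.30), a cell cycle inhibitor, *GSN* (0.30), which encodes the actin-severing protein gelsolin, and *FGA*. *TTR* was closest to *GUCA2A* (0.20), *FGB* (0.17) and *GPC3* (0.15), and *GJB1* to *GSN* (0.10), *APOA1* (0.09) and *CCL25* (0.08). The other likenesses were *APOC3* (0.17) and *GSN* (0.16) for *VTN*, *GSN* (0.15) and *LINC01356* (0.14) for *FGA*, and *FGA* (0.12) and *VCAN* (0.11) for *FGG*.

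The 17 D6 hypoblast-gate cells with at least 10 *AFP* UMIs were looked at more closely after their values had been seen. All 17 also had *FGB*, at a median of 7 UMIs, 16 had *VTN* and 13 had *TTR*. *FGB* stood at 690 CPM in them and 45.2 in the rest of the gate, *TTR* at 196 and 12.6, and *VTN* at 297 and 31.7. *APOA4*, an apolipoprotein of gut and yolk sac, stood at 772 and 134, *HNF4A* at 144 and 45.3, and *LCN15* was lower, at 61.1 and 212. Part of these levels lay in single cells of the 17. The richest cell held 25 of the 68 *VTN* UMIs (median 2), 62 of the 177 of *APOA4* (median 3) and 15 of the 45 of *TTR* (median 2). Among other genes with large ratios were *MTTP*, which loads lipid onto lipoproteins, at 113 and 11.5, *GPC3* at 454 and 65.3, and the endocytic receptor gene *LRP2* at 122 and 19.5. *POU5F1* stood at 21.8 and 40.4, but the gate itself admits only cells low in *POU5F1* and without *SOX2*. Scrublet called none of the 17 a doublet, but it called only 0.280% of the whole D6 hypoblast gate. Neither value can therefore decide whether the 17 were single cells. *KRT7* and *AMBN* also ranked high, each with 26 UMIs, which lay in 4 and 2 cells.

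*APOA2*, which encodes an apolipoprotein and stood at 423 CPM at D4 and 1175 at D6 in the hypoblast gate, served to order the D6 cells of that gate. From cells with 0 thinned *APOA2* UMIs (637 cells) through 1 to 2 (1110 cells) and 3 to 9 (1458 cells) to 10 or more (362 cells), *FGB* stood at 21.6, 37.6, 54.1 and 113 CPM. *AFP* stood at 7.32, 7.31, 16.2 and 60.0, and *VTN* at 21.2, 30.5, 32.9 and 65.1. *FGB* and *VTN* were thus higher in each successive class. The *VTN* intervals of cells with 1 to 2 and 3 to 9 UMIs overlapped (27.6 to 33.7 and 30.2 to 35.7). *AFP*, whose UMIs lay in 6, 15, 35 and 27 cells of these classes, was highest in the last one. A single cell held 47 of the 56 *AFP* UMIs of the first class. With the richest cell of each class left out, after seeing the data, *AFP* stood at 1.18, 3.43, 9.49 and 50.9. *TTR* had no such order, at 6.93, 17.6, 11.3 and 23.4. *FGG* at 3.66, 3.81, 6.34 and 6.59 and *GJB1* at 5.88, 7.08, 8.59 and 12.9 differed less between classes, and *FGA* stood at 9.28, 15.2, 13.9 and 26.8. Median depths of the classes were between 10594 and 11111 UMIs.

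**Figure D4:**
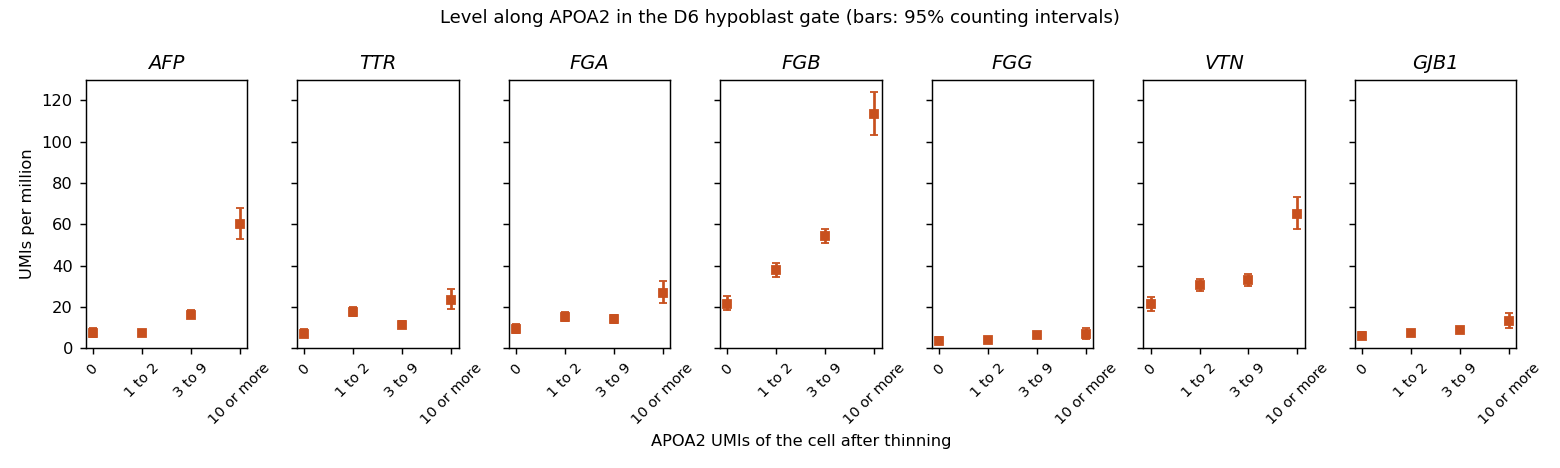
Level (CPM, with 95% counting intervals) of 7 members in 4 classes of D6 hypoblast-gate cells by their thinned *APOA2* UMIs. *FGB* goes from 21.6 to 113 and *AFP* from 7.32 to 60.0, and *FGG* lies between 3.66 and 6.59. Of the 56 *AFP* UMIs in the class with 0 *APOA2* UMIs, 47 lay in 1 cell.

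Other genes split the members further. The 331 cells with at least 2 thinned *APOA4* UMIs had more *AFP* (88.8 CPM against 6.76 in cells with none), more *FGB* (114 against 38.3) and more *VTN* (67.3 against 28.2). In the 628 cells with at least 2 UMIs of the lipocalin gene *LCN15*, *FGB* was also higher (72.1 against 38.9) and *TTR* was higher (23.3 against 10.4), but *AFP* was lower (6.39 against 13.5). The log2 ratio of *AFP* was 3.71 (3.47 to 3.97) with *APOA4* and -1.08 (-1.58 to -0.62) with *LCN15*. The same cell of 114 UMIs was among those with *APOA4*, whose *AFP* level was 59.7 without it. The *AFP* UMIs lay in 25 cells with *APOA4*, 7.55% of them against 1.41% of cells without. They lay in 16 cells with *LCN15*, 2.55% of them against 1.81% of cells without. The share of *AFP*-positive cells was thus not lower with *LCN15*, where no cell had more than 7 *AFP* UMIs, against 51 without. Median depths were 11002 and 10875 UMIs with and without *APOA4*, and 9816 and 11346 with and without *LCN15*.

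In the 296 cells with at least 2 UMIs of *NPPB*, a natriuretic peptide gene, *AFP* was higher (54.8 against 11.1) and *VTN* was higher (52.1 against 31.0), while *FGB* was lower (26.4 against 51.6). The *AFP* UMIs there came from 11 cells, 1 of which held 114 of the 224, and without that cell, left out after seeing the data, the level was 27.0 CPM. Median depths were 13186 and 10707 UMIs. In 58 cells with at least 2 UMIs of *CER1*, a gene of the anterior visceral endoderm, *AFP*, *FGB* and *FGG* had no UMI, against 16.7, 50.6 and 5.23 CPM in cells without *CER1*. By a floor of 3 counts over the group, *FGB* was at least 15.1-fold lower there. That bound treats UMIs as independent, although the *FGB* UMIs of cells without *CER1* lay in 13.7% of them. *AFP* lay in 2.40% of those cells and *FGG* in 4.29%. The absence of *AFP* and *FGG* in 58 cells cannot be told from such shares. *VTN* was present in them, at 21.3 (12.8 to 33.2) against 33.4. These cells were deeper, with a median of 15058 UMIs against 10866. At D6, 1 cell had at least 2 thinned UMIs of *FGFBP3* and 5 had at least 2 of *ISL1*, too few to compare.

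Cells with a UMI of *MKI67*, a gene of dividing cells, had lower levels of most members at D6. In the 701 cells with *MKI67*, *AFP* stood at 5.10 against 19.3 CPM in the 2866 without it, *TTR* at 5.73 against 15.9 and *FGB* at 22.9 against 56.3. The log2 ratios were -1.92 (-2.37 to -1.50), -1.48 (-1.91 to -1.07) and -1.30 (-1.51 to -1.09). Those of *VTN*, *FGA*, *FGG* and *GJB1* lay between -0.62 and -0.51, and the interval of *FGG* reached 0.01. The *AFP* UMIs lay in 11 cells with *MKI67* (1.57%) and 72 without (2.51%), and the cell of 114 UMIs was among those without. *TTR* was in 4.56% and 6.80% of cells and *FGB* in 8.13% and 14.6%. Cells with *MKI67* had a median of 12953 UMIs against 10550. At D4 *TTR* stood in the other order, at 4.12 CPM with *MKI67* and 2.61 without (0.66, 0.17 to 1.14), and so did *FGA*, at 6.92 and 5.18 (0.42, 0.06 to 0.77). *AFP* (0.43), *FGG* (0.25) and *GJB1* (0.49) were above 0 and *VTN* (-0.18) and *FGB* (-0.22) below at D4, and the intervals of these 5 spanned 0.

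**Figure D5:**
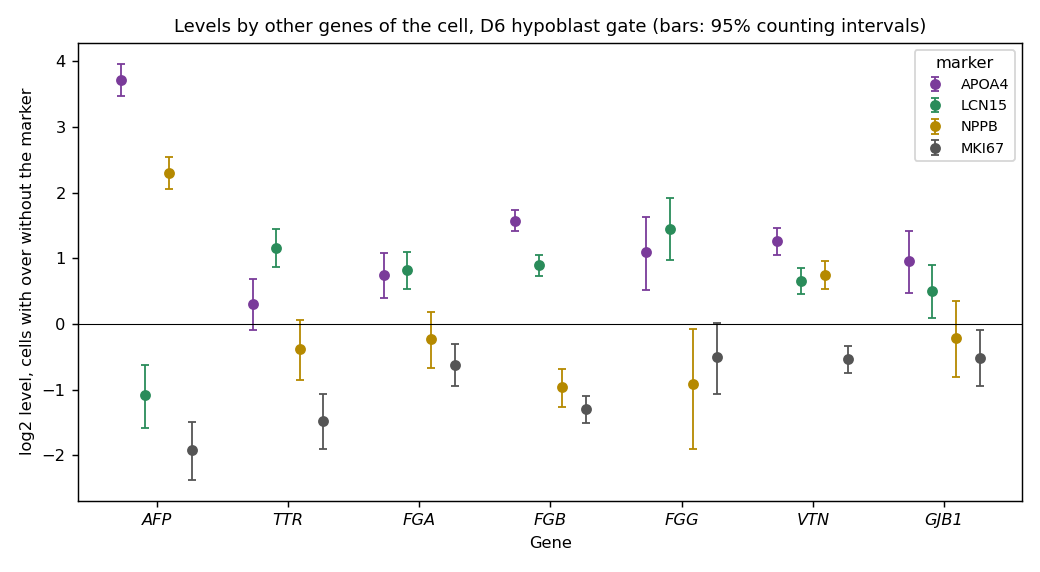
Log2 ratio of the level in D6 hypoblast-gate cells with a marker (at least 2 thinned UMIs of *APOA4*, *LCN15* or *NPPB*, at least 1 of *MKI67*) over cells with none, for 7 members, with 95% counting intervals. *AFP* is at 3.71 with *APOA4* and at -1.08 with *LCN15*, although 2.55% of cells with *LCN15* and 1.81% of cells without it had *AFP*. The 7 genes are all below 0 with *MKI67*, where the interval of *FGG* reaches 0.01.

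Other genes of the same kind were in part higher at D6, in a gate where 6.4% of all genes were at least 2-fold higher. Of 60 other plasma protein genes, 31 had at least 10 UMIs over both days in the hypoblast gate, and 12 of these were at least 2-fold higher at D6, 3 were lower (*C5*, *SERPINF1* and *AHSG*, the last with 9 and 2 UMIs) and 16 were between. Haptoglobin (*HP*), which binds free hemoglobin, went from 1.61 to 70.2 CPM, a log2 ratio of 5.45 (5.12 to 5.79). Coagulation factor X (*F10*) went from 41.4 to 100.4, and prothrombin (*F2*) from 1.92 to 11.3. *PROS1*, which encodes protein S, stood at 39.0 and 60.9, and *TFPI*, an inhibitor of coagulation, at 71.9 and 49.0, both under 2-fold. The vitamin D carrier gene *GC*, a relative of *ALB* and *AFP*, went from 0.544 to 3.59.

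Receptors and partners of the members were mostly under 2-fold. Of 20 measured, 4 were at least 2-fold higher at D6 in the hypoblast gate and none was lower. This count, like those of the regulators and enzymes below, stands beside 6.4% of all genes at least 2-fold higher. The endocytic receptor genes *LRP2*, *CUBN* and *AMN*, whose products take up transthyretin, retinol-binding protein, transferrin and albumin, went from 4.91 to 20.1, from 1.69 to 11.3 and from 3.95 to 16.6 CPM. The fourth was *ASGR2*, at 0.272 and 0.838. Of 20 liver transcription regulators, 3 were at least 2-fold higher (*HNF4A*, *GATA6* and *ONECUT2*), *NR0B2* was lower and 16 were between. Of 8 measured hepatocyte enzymes, *TDO2* (1.42 to 7.40 CPM), *FABP1* (0.105 to 1.46) and *UGT2B7* (7 UMIs at D6 and 4 at D4) were higher, 3 were lower (*HPD* among them, at 1.02 and 0.287), and *ASS1* (70.1 and 77.6) and *CPS1* (15.8 and 12.5) were between.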

How the data were processed

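Single-cell RNA of hEEs was measured with the 10x Chromium 3′ platform in 2 libraries, 1 per day. The authors deposited unnormalized UMI counts per gene and cell, made with Cell Ranger (6.0.1 per the file headers, hg38 per the labels). Their processing notes also name Seurat 4.0.1 and R 4.0.3, which the deposited counts do not require. The 7 bisulfite libraries were not analysed here.

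The 10 genes, the gates and the gene lists were chosen with earlier results of these data known. Counts were summed over the cells of each gate and day and divided by all UMIs of those cells (CPM, counts per 1000000 UMIs) (Python 3.11.15, numpy 2.4.6, scipy 1.17.1 and pandas 2.3.3). Cells were thinned without replacement to 3430 UMIs (seed 1). With 1 library per day no test was run. A gene counted as higher or lower past 2-fold, with at least 10 UMIs over both classes, and medians of log2 ratios used 0.5 counts added. Intervals have a level of 95%. They cover counting error, not the spread between cultures. Floors of 3 counts stand for a count of 0. Depth limits genes of few UMIs, and a level of 0.0627 CPM at D4 and 0.0718 at D6 corresponds to 3 UMIs of the hypoblast gate. Doublets were kept, and Scrublet in scanpy 1.11.5 called 3.85% and 3.98% of kept cells. Named genes were all members, up to 4 genes per list with the most UMIs in the D6 hypoblast gate, genes that small counts turn on, and for each member the 3 genes of highest r. Some genes that fall under this rule are not reported here. Others named (*GC*, *F2*, those of the *AFP*-rich cells) were chosen after their values were seen. The level and ratio calculations were tested on simulated counts. These were independent Poisson counts, so that test cannot show how the intervals hold where UMIs lie in few cells. Promoter sequences and gene positions are from RefSeq, GRCh38.p14. Alternatives were stricter gates, gates relative to depth, no cell filter, doublets left out, equal weight per cell, thinned cells, median-of-ratios size factors, the richest 1% of cells left out, and no minimum of UMIs for the share of all genes.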

Additional observations from a re-analysis of the deposited data

Results flagged for a closer look

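The ratio of D6 over D4 had opposite signs in the 2 gates for *AFP* and *VTN*, with counting intervals that exclude 0. For *AFP* the log2 ratio was 5.34 in the hypoblast gate and -1.38 in the embryonic gate. For *VTN* it was 0.56 in the hypoblast gate and -0.67 (-1.32 to -0.03) in the embryonic gate, where 48 and 39 UMIs were counted. With the richest embryonic cell of each day left out, after seeing the data, the latter was -0.65 (-1.31 to 0.003). That interval spans 0. With 1 library per day, the difference between the gates was not tested.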

How the results depend on the processing

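The counts of members at least 2-fold higher kept within 1.5 times of the reported counts under all 8 alternatives. They were 6, 8 and 7 throughout except with the richest 1% of cells left out. That gave 5 at D4, 6 at D6 and 6 for D6 over D4. *FGG* at D4 and *ALB* then had no UMI left, and *AFP* at D6 fell under 2-fold, to a log2 ratio of 0.31. The embryonic gate then kept no UMI of *TTR*, *FGA*, *FGB* or *GJB1* on either day, nor of *VTN* or *FGG* at D6. The D4 hypoblast gate kept none of *AFP* or *FGG*. Such members counted as higher because the other class was at 0. For them this alternative cannot decide whether the difference stayed past 2-fold. The log2 ratio of the summed level was 2.08 with equal weight per cell, 2.03 in thinned cells and 1.72 without the richest 1% of cells, against 1.95. Of 185 values of single members, 173 stayed within the counting interval of the reported value and 12 did not. Values with a class at 0 could not be computed and are not among the 185. Most of those missing fell under the richest 1% of cells left out, where 2 values stayed and 5 did not. *TF* changed sign, in a value whose interval spans 0, from -0.19 to 0.05 at D4 with equal weight per cell, and at D6 from 0.22 to -0.01 with equal weight and to -1.30 in thinned cells. *FGA* at D6 was 7.11 with stricter gates and 7.50 without doublets, against 5.46. The value of 7.50 cannot be reached with the embryonic cell of 17 *FGA* UMIs kept, so that cell was among the doublets left out. *VTN* at D4 was 6.98 without the richest 1% of cells, against 4.76, with 9 of its 48 embryonic UMIs left. *ALB* at D6 was 1.5 in thinned cells, against 4.93. The cause of the other shifts was not tested. Without a minimum of UMIs, the genes at least 2-fold higher in the hypoblast gate were 5703 and not 3074 at D4 (6133 and not 3327 lower) and 5000 and not 3051 at D6. Those higher at D6 were 3558 and not 1235 in the hypoblast gate and 3829 and not 1120 in the embryonic gate, where 2245 and not 416 were lower, since more genes are then counted. No paired analysis was possible because each day has 1 single-cell library.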
